A study of Homo sapiens with 60 samples.

Results

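Cytosolic ribosomal proteins are the protein building blocks of the large and small subunits of the ribosome that translates nuclear-encoded mRNA. The members were chosen by gene symbol alone: RPL or RPS followed by a number, with an optional A, X or L and a further digit, plus RPSA, RPLP0, RPLP1 and RPLP2. The rule found 84 of the 19712 genes in the tables, 52 of the large subunit and 32 of the small subunit, and 77 of them without the 7 members whose symbols mark them as paralogs of another member (RPL3L, RPL7L1, RPL10L, RPL22L1, RPL26L1, RPL39L and RPS27L). The mitochondrial ribosomal proteins, which build the separate ribosome of that organelle, carry MRPL and MRPS symbols and serve here as a comparator list of 78 genes.

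Cells make most ribosomal proteins in equal numbers for each ribosome. Most ribosomal protein mRNAs begin with a run of pyrimidines, the 5′ terminal oligopyrimidine (5′TOP) motif. Through this motif the MTOR kinase and the RNA-binding protein LARP1 set the translation and the stability of these mRNAs when growth signals change. MYC and RNA polymerase I control other steps of ribosome production, which growth factor receptors such as EGFR drive in dividing epithelial cells.

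The study followed 4 non-small cell lung cancer lines with mutant EGFR, PC9, HCC827, NCI-H1975 (H1975 from here on) and HCC2935, through treatment with osimertinib, an inhibitor of the mutant receptor, and its withdrawal. Each line had 5 arms with 3 biological replicates, 60 libraries of polyadenylated RNA in all. Parental cells were kept without drug for 21 days and then received either DMSO vehicle or 500 nM osimertinib for 24 h, and these arms are called DMSO and acute. Drug-tolerant persisters (DTPs) were the cells left after 21 days in 500 nM osimertinib. The short washout arm spent 24 h in medium without drug after those 21 days. The long washout arm stayed without drug until growth was exponential again, which took 7 days in PC9, 4 days in HCC827, 3 days in H1975 and 10 days in HCC2935. The washout length thus differed between the lines, and each line stands for 1 tumour.

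Library totals ran from 17.7 to 49.1 M estimated counts (M, mega), with a median of 30.1 M. PC9 libraries held 34.7 to 47.1 M and H1975 libraries 38.7 to 49.1 M, against 17.7 to 25.1 M in HCC827 and 18.6 to 25.6 M in HCC2935. Counting error was a small part of the spread: over 60 pairs of replicates the mean squared difference per gene was 8.97 to 138 times the counting error, with a median of 25.6 times. In each line 83 of the 84 members had enough counts to be tested, and RPL10L, a paralog of RPL10 known from testis, was not tested, with a mean of 0.03 estimated counts per library. Of the members, 74 had a mean of at least 1000 estimated counts. Epithelial markers were in place, with 9 of 10 above 1 TPM (abundance per library total, corrected for transcript length) in each line and a summed mean level of 11300 TPM in PC9, 7490 TPM in HCC827, 3740 TPM in H1975 and 11500 TPM in HCC2935. KRT8 in PC9, at 3970 TPM, and KRT7 in the other lines, at 2130 TPM in HCC827, 1250 TPM in H1975 and 3090 TPM in HCC2935, were the most abundant of them. The list of 10 markers of other cell types summed to 40.2 TPM in PC9, 158 TPM in HCC827, 186 TPM in H1975 and 97.4 TPM in HCC2935. The most abundant of these markers was CD68 at 23.9 TPM in PC9, 129 TPM in HCC827 and 101 TPM in H1975, and COL1A1 at 54.8 TPM in HCC2935. The T cell marker CD3E was under 0.1 TPM in all 4 lines.

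The start sites of the members carried the pyrimidine run for which these mRNAs are known. The 30 bases from 10 before to 20 after the annotated start in the RefSeq promoter table (GRCh38.p14) were searched on the gene's strand for a run of at least 5 bases, each C or T, that began with C within 5 bases of the start. Of the 67 members with a window, 54 (80.6%) held such a run, against 4203 of 14801 genes of the tables with a window (28.4%) and 7408 of all 35116 windows (21.1%). Without the paralogs the count was 53 of 62 members (85.5%), and 1 of the 5 paralogs with a window held a run. Mitochondrial ribosomal proteins held it in 16 of 69 windows (23.2%), and other mRNAs known as 5′TOP in 14 of 16 (87.5%). The windows of RPL41 and RPL10 (2 of the 3 most abundant members; the other is RPS2), of RPL10A and RPS24 (the members with the lowest adjusted p for a difference in DTP response between the lines), of RPL13A, and of RPS26 and RPS27L, which moved apart from the rest, are shown 5′ to 3′ with the run in capitals.
RPL41, chr12:56116623-56116652, plus strand: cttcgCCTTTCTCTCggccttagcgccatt
RPL10, chrX:154398367-154398396, plus strand: ggaggagcgCCTCTTTCCCTTCggtgtggt
RPL10A, chr6:35468391-35468420, plus strand: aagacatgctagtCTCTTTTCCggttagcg
RPS24, chr10:78033853-78033882, plus strand: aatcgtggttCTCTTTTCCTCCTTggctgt
RPL13A, chr19:49487598-49487627, plus strand: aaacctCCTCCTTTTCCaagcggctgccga
RPS26, chr12:56041908-56041937, plus strand: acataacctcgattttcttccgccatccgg
RPS27L, chr15:63157458-63157487, minus strand: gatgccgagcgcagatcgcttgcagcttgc
The windows of RPS26 and RPS27L held no run by this rule. That of RPS26 does hold 9 pyrimidines in a row, which begin with T 2 bases after the start. A run counts from its first C, which here lies more than 5 bases after the start and so outside the rule. RPS27, RPS10, RPS7, RPL26 and RPL22L1, which also moved apart from the rest in some lines, held a run of 9, 11, 7, 12 and 10 bases. RPL7L1, RPL27 and RPL26L1, lower acutely in 4, 3 and 2 lines, held none. RPL10 has 3 windows, of which 1 held a run, and a gene counted when any of its windows did. The members lay on 21 chromosomes, with at most 12 on a single chromosome, chromosome 19, and their transcripts were short, with a median effective length of 606 bases and 73 of 84 under 1000 bases.

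Ribosomal protein mRNAs took up a large part of the transcriptome, and how large a part differed between the lines before any drug. Under DMSO the members held 15.05% ± 0.442 (SD, n = 3) of the TPM total in PC9, 16.98% ± 0.723 in HCC827, 13.56% ± 0.399 in H1975 and 7.904% ± 0.304 in HCC2935. The total is that of the 19712 listed genes, which summed to 0.806 to 0.891 M TPM per library. All shares of TPM here are thus somewhat higher than shares of a full 1 M TPM. The share in HCC827 was 2.148 times that in HCC2935, and the DMSO libraries of these lines were far apart. In bulk RNA, fewer cells of a type and less of an mRNA per cell cannot be told apart, and a share of the total says nothing about the amount of RNA per cell. Averaged over the lines, 58 members stood at 1000 TPM or more under DMSO, 15 between 100 and 1000 TPM, and 11 under 100 TPM. The 3 most abundant were RPL41, the smallest ribosomal protein, RPS2 of the small subunit and RPL10, which joins the large subunit late in its assembly. RPL41 stood at 4396 TPM in PC9, 5412 TPM in HCC827, 5030 TPM in H1975 and 2365 TPM in HCC2935. HCC2935 was the lowest line for 71 members, and the highest line was HCC827 for 36, PC9 for 33, H1975 for 13 and HCC2935 for 1, the p53 target RPS27L, with RPL10L at 0 TPM in all DMSO libraries.

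The DMSO level differed between the lines for 83 of 83 members in the edgeR test of a difference over 60 libraries (adjusted p under 0.05), where 89.3% of all genes tested passed. The median F was 81.6 over the members and 21.3 over all genes. The 4 members with the lowest adjusted p were RPL7 (2.54e-34), RPL5 (3.14e-28), RPL14 (1.12e-26) and RPL6 (1.1e-25), all of the large subunit. RPL7 stood at 7713, 7847 and 7662 TPM in the HCC827 libraries and at 759.6, 742.3 and 809.6 TPM in those of PC9, with means of 1563 TPM in H1975 and 369 TPM in HCC2935. The HCC827 libraries formed a group of their own for RPL7, 20.98 times the mean of the lowest line. RPL5, which together with RPL11 and 5S rRNA can bind MDM2, had means of 1697 TPM in PC9, 2061 TPM in HCC827, 804.4 TPM in H1975 and 400.5 TPM in HCC2935. RPL14 ranged from 167 TPM in HCC2935 to 961.9 TPM in PC9, and RPL6 from 591.5 TPM in HCC2935 to 2224 TPM in HCC827. RPSA, also known as the laminin receptor, and the RPL22 paralog RPL22L1 differed by more than 5-fold as well, RPSA between 331.1 TPM in HCC2935 and 1893 TPM in HCC827, and RPL22L1 between 26.35 TPM in HCC2935 and 214.6 TPM in PC9. RPL26, RPS7, RPS10 and RPS27 came out far below the other core members, RPS27 at 12.04 to 26.86 TPM in the 4 lines. Reads of such genes can be shared with near-identical copies elsewhere in the genome, so their absolute levels and their fold changes are uncertain. This was not tested here.

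The share of the members hardly moved within 24 h of osimertinib and parted between the lines over 21 days. In PC9 the DMSO libraries gave 15.43%, 15.16% and 14.57%, the acute libraries 15.18%, 15.32% and 15.34%, and the DTP libraries 13.30%, 12.72% and 13.00% of TPM. In HCC2935 the values were 8.09%, 8.07% and 7.55% under DMSO, 8.68%, 7.75% and 7.44% acutely, and 4.79%, 4.92% and 5.13% in DTPs. In H1975 they were 13.212%, 13.471% and 13.996% under DMSO, 13.36%, 14.60% and 13.49% acutely, and 16.26%, 15.48% and 18.80% in DTPs. The DTP libraries thus lay below all DMSO libraries in PC9 and HCC2935 and above all of them in H1975, while acute and DMSO libraries overlapped in each line. In HCC827 the DTP libraries, at 15.54%, 16.81% and 17.29%, overlapped with DMSO, at 17.80%, 16.43% and 16.70%. The ratio of the mean share in DTPs to that under DMSO was 0.864 in PC9, 0.975 in HCC827, 1.24 in H1975 and 0.626 in HCC2935. DTP replicate 3 of H1975 was the highest, and without it the H1975 ratio was 1.17. The acute ratios were 1.02, 1.08, 1.02 and 1.01 in the order PC9, HCC827, H1975 and HCC2935. The share of the mitochondrially encoded mRNAs also moved, in HCC827 from 11.9% ± 2.6 under DMSO to 19.48% ± 0.711 in DTPs (SD, n = 3), against 17.78% and 14.97% in PC9, 13.77% and 14.16% in H1975 and 14.53% and 15.34% in HCC2935. Its acute means were 17.67% in PC9, 13.88% in HCC827, 16.3% in H1975 and 18.96% in HCC2935, where the acute libraries (17.65% to 21.21%) lay above those of DMSO (13.95% to 15.34%), and its part in these results was not tested.

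**Figure D1:**
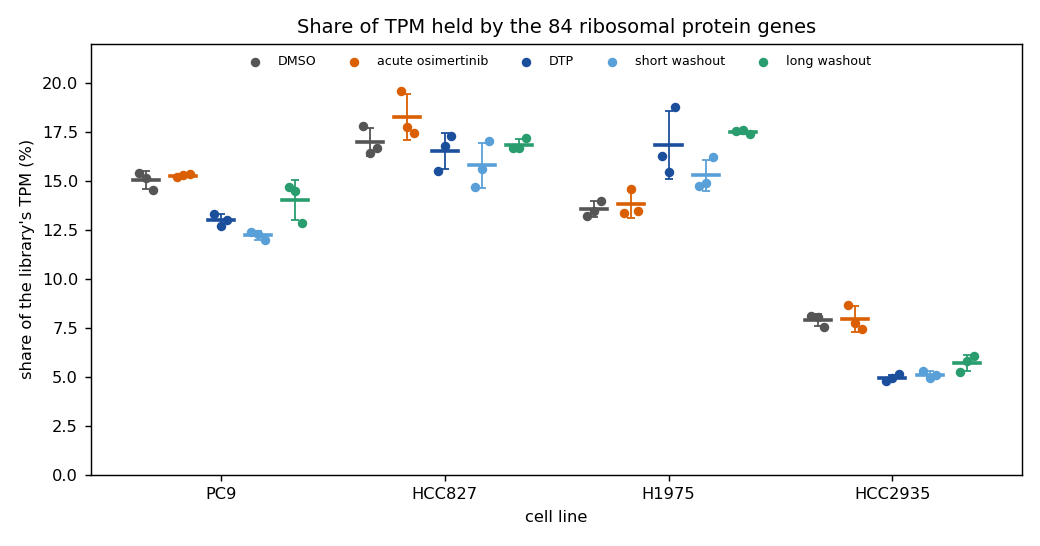
Share of TPM held by the 84 cytosolic ribosomal proteins, in percent of the library's summed TPM over the listed genes (vertical axis), for the 5 arms of each line. Points are libraries, horizontal lines the mean of 3 and bars the SD. DTP libraries of HCC2935 lie between 4.79% and 5.13%, below its DMSO libraries, and those of H1975 between 15.48% and 18.80%, above its DMSO libraries.

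The plot of the shares by arm sets each library as a point, so that the gaps between DMSO and DTP points can be read against the spread of the replicates. It also shows that HCC2935 stood apart from the other lines in every arm. After 24 h of washout the shares in PC9 (12.40%, 12.29% and 11.98%) lay below those of its DTPs, and in the other lines they overlapped with them. After the long washout the shares in H1975 (17.58%, 17.59% and 17.40%) lay above DMSO and those in HCC2935 (5.25%, 5.81% and 6.07%) below it. The long washout shares of PC9 (14.72%, 14.51% and 12.86%) and HCC827 (16.70%, 16.68% and 17.20%) overlapped with DMSO. The ratios to DMSO were 0.932 in PC9, 0.993 in HCC827, 1.29 in H1975 and 0.723 in HCC2935, and in PC9 0.971 without long washout replicate 3.

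Acute osimertinib answers what inhibition of the receptor does to these mRNAs within 24 h. Feedback genes of the pathway below EGFR fell in all 4 lines: DUSP6, a phosphatase that ERK signalling induces, fell with log2 fold changes of -5.98 (SE 0.69) in PC9, -3.40 (SE 0.59) in HCC827, -3.53 (SE 0.59) in H1975 and -5.48 (SE 0.29) in HCC2935, and SPRY4, another feedback inhibitor of this pathway, with -5.14, -4.24, -4.01 and -4.13. Most ribosomal protein mRNAs showed no such response. In PC9, 14 members were higher and 13 lower of 83 at an adjusted p under 0.05 in edgeR (16.9% and 15.7%), against 34.5% higher and 31.7% lower of all genes tested. In HCC827, 2 were higher and 8 lower, against 18.7% and 20.2% of all genes. In H1975, 4 were higher and 12 lower, against 27.8% and 23.8%, and in HCC2935, 7 were higher and 8 lower, against 24.9% and 22.2%. The shares of members called were below those of all genes in each line and each direction. The median log2 fold change of the members was 0.01 in PC9, -0.02 in HCC827, 0.02 in H1975 and 0.02 in HCC2935, beside 0.07, 0.02, 0.10 and 0.07 over all genes, and 49 of 83 members (59.0%) were called in no line, where 13.4% of the 13484 genes tested in all 4 lines were. No member was higher in one line and lower in another, beside 7.73% of those genes.

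The split between the directions differed between fits in HCC827 and HCC2935. With library totals in place of TMM, 10 members were higher and 6 lower in HCC827, where the median of all genes was 0.12 on that scale and the members stood 0.04 below it (-0.04). By limma on log2 TPM, which changes the scaling and the test together, it was 9 higher and 7 lower in HCC827, and 6 higher and 12 lower in HCC2935. With library totals HCC2935 gave 10 higher and 7 lower. The acute count in HCC827 was 5 without DMSO replicate 2 and 6 without acute replicate 2, and that in HCC2935 was 8 without DMSO replicate 1 and 8 without DMSO replicate 2.

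A few members, most of them of low level, fell within 24 h. RPL7L1, RPL22L1, RPL26, RPL39L and RPS10 were called lower in all 4 lines, as were 11.5% of all genes tested in the 4 lines, and RPL27, RPS7 and RPS26 in 3. RPL39L, a paralog of the exit tunnel protein RPL39, stood at 49.51, 44.83 and 41.26 CPM (counts per library total, TMM-scaled, not corrected for length) in the DMSO libraries of PC9 and at 18.01, 15.87 and 18.74 CPM in the acute ones. In HCC2935 it stood at 27.72, 31.34 and 26.19 CPM under DMSO and at 10.96, 11.55 and 8.868 CPM acutely. The groups did not overlap in either line, and RPL39L fell, with log2 fold changes of -1.37 (SE 0.14, adjusted p = 1.14e-06) in PC9, -1.44 (SE 0.13, adjusted p = 5.64e-07) in HCC2935, -1.03 (SE 0.14) in HCC827 and -0.84 (SE 0.14) in H1975. RPL39 itself, far more abundant, had fold changes of 0.19 in PC9, -0.01 in HCC827, 0.13 in H1975 and 0.12 in HCC2935. RPS10, a small subunit protein mutated in Diamond-Blackfan anaemia, fell too, at -1.61 (SE 0.21) in PC9, -1.10 (SE 0.28) in HCC827, -0.78 (SE 0.16) in H1975 and -1.55 (SE 0.23) in HCC2935. RPL26, known to bind p53 mRNA, had -1.31, -0.67, -0.80 and -0.78 in the same order. RPL22L1 had -1.27, -0.69, -1.20 and -0.55, and RPL7L1, which takes part in ribosome assembly, -0.92, -0.39, -0.42 and -0.39. The fold changes of RPS10 and RPL26 carry the uncertainty of shared reads given above.

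Some of these calls were lost with 1 library fewer, many of them at fold changes close to those of the full fit. RPL22L1 in HCC2935 was no longer called when any of 5 of the 6 libraries was left out: its log2 fold change was -0.58, -0.54 and -0.54 without DMSO replicate 1, 2 or 3, and -0.42 and -0.51 without acute replicate 2 or 3. RPL26 lost its call in HCC827 without DMSO replicate 2 (-0.46), acute replicate 1 (-0.63) or acute replicate 2 (-0.57), and RPL7L1 in H1975 without DMSO replicate 2 (-0.28), acute replicate 2 (-0.44) or acute replicate 3 (-0.26). RPS7, whose values were -0.86 in PC9, -0.49 in HCC827, -0.57 in H1975 and -0.24 in HCC2935, lost its call in HCC827 without DMSO replicate 2 (-0.44), DMSO replicate 3 (-0.40), acute replicate 1 (-0.42) or acute replicate 2 (-0.46). RPL27, a large subunit protein with values of -0.30, -0.37, -0.27 and -0.19 in the same order of lines, lost it in HCC827 without any of 5 libraries, at -0.29 to -0.37 across them: DMSO replicates 1, 2 and 3 and acute replicates 2 and 3.

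RPS26, which lines the channel through which mRNA leaves the small subunit, fell in 3 lines. In H1975 it stood at 289.8, 200.8 and 292.5 CPM under DMSO and at 92.29, 118.5 and 137.3 CPM acutely. In PC9 the values were 269.4, 235.7 and 233.4 CPM against 171.0, 170.1 and 178.2 CPM, and in HCC827 188.9, 244.3 and 196.9 CPM against 118.6, 106.0 and 116.2 CPM. All acute libraries lay below all DMSO libraries in these 3 lines, whereas in HCC2935 the acute values of 126.6, 114.6 and 99.54 CPM overlapped with 127.5, 127.7 and 120.8 CPM. The log2 fold changes were -0.51 (SE 0.10, adjusted p = 0.000323) in PC9, -0.89 (SE 0.14, adjusted p = 0.000189) in HCC827, -1.17 (SE 0.16, adjusted p = 3.56e-05) in H1975 and -0.14 (SE 0.09, adjusted p = 0.205) in HCC2935, and the difference between the lines passed its own test (adjusted p = 0.000119). The acute response differed between the lines for 7 of 83 members, among them RPL7L1, RPL22L1, RPL26L1, RPL39L, RPS26 and RPS27L, where 41.4% of all genes tested passed. That count was 2 without replicate 1 of each group and 4 without replicate 3.

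RPL13A, a large subunit protein also known for silencing inflammatory mRNAs, was higher in PC9 by 0.36 (SE 0.06), in H1975 by 0.38 (SE 0.13) and in HCC2935 by 0.46 (SE 0.09), with 0.27 (SE 0.13) in HCC827. The H1975 call was lost without DMSO replicate 1 (0.36) or acute replicate 2 (0.34). RPS27L was higher in H1975 by 0.94 (SE 0.16), with 0.31 in PC9, a call lost without DMSO replicate 1 (0.25) or acute replicate 2 (0.22), 0.41 in HCC827 and 0.18 in HCC2935. RPL3L, the muscle form of RPL3, had 0.90, 1.37, 0.29 and 0.83 without a call, at levels of 0.21 to 0.85 TPM. RPS27 had 0.51, 0.41, 0.25 and 0.59. Of 23 other mRNAs known as 5′TOP, 7 were higher and 6 lower acutely in PC9, 7 and 3 in HCC827, 2 and 5 in H1975, and 9 and 3 in HCC2935. Those higher were 30.4%, 30.4%, 8.7% and 39.1% in that order, beside 34.5%, 18.7%, 27.8% and 24.9% of all genes. Those lower were 26.1%, 13.0%, 21.7% and 13.0%, beside 31.7%, 20.2%, 23.8% and 22.2%. The 2 higher in H1975 were EEF1A1 and EEF2. The translation elongation factors EEF1A1 and EEF2, both on that list, were higher acutely in all 4 lines, EEF1A1 by 0.47, 0.30, 0.32 and 0.42 and EEF2 by 0.38, 0.51, 0.36 and 0.32, in the order PC9, HCC827, H1975 and HCC2935. Of these, EEF1A1 lost its call in HCC827 without acute replicate 1 (0.24) and in H1975 without DMSO replicate 1 (0.27), acute replicate 1 (0.28) or acute replicate 2 (0.30), and EEF2 lost it in H1975 without DMSO replicate 1 (0.30), DMSO replicate 3 (0.34), acute replicate 1 (0.33) or acute replicate 2 (0.29).

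DTPs against DMSO asks what 21 days of drug left behind, and here nearly all members were lower in PC9 and HCC2935, and 47 of 83 were higher in H1975. In PC9, 77 members were lower and 1 higher of 83 (92.8% and 1.2%), against 33.5% lower and 35.7% higher of all genes tested. In HCC2935, 75 were lower and 1 higher, against 25.8% and 27%. In H1975, the 47 higher stood beside 7 lower and 29 without a call, against 26% higher and 25.7% lower of all genes. HCC827 stood between, with 7 higher and 18 lower, against 23% and 20.4%. The median log2 fold change of the members was -0.52 (quartiles -0.71 and -0.35) in PC9, -0.06 in HCC827, 0.30 (0.13 and 0.47) in H1975 and -0.77 (-0.99 and -0.59) in HCC2935, where the medians over all genes were 0.06, 0.03, 0.02 and 0.04. By subunit the medians were -0.53 for the large and -0.49 for the small subunit in PC9, -0.05 and -0.08 in HCC827, 0.29 and 0.39 in H1975, and -0.75 and -0.85 in HCC2935. Among the 74 members with a mean of at least 1000 estimated counts, 71 were lower in PC9 and 70 in HCC2935 with 0 higher in either by edgeR, and 45 were higher and 4 lower in H1975. DTP replicate 3 of H1975 carried part of that median, which was 0.19 without it.

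**Figure D2:**
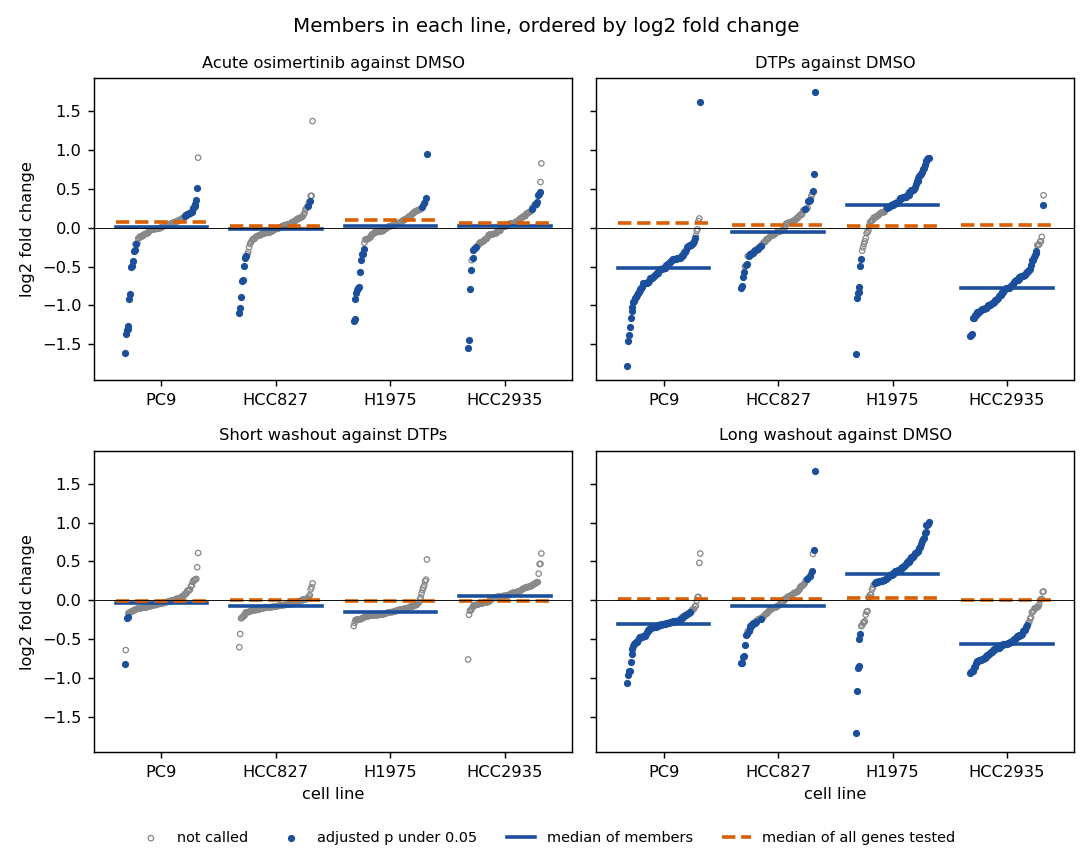
Log2 fold change (vertical axis) of the 83 members tested in each line (horizontal axis), ordered by value within the line, with 1 panel for each of the 4 comparisons. Filled points passed adjusted p under 0.05, the solid line is the median of the members and the dashed line that of all genes tested. In DTPs against DMSO the medians of the members are -0.52 in PC9, -0.06 in HCC827, 0.30 in H1975 and -0.77 in HCC2935.

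The plot of ordered fold changes shows for DTPs that in PC9 and HCC2935 nearly all points lie below the median of all genes, and in H1975 most lie above it. The choice of fit changed the size of the shift on the scale of each fit more than its size beside all genes. In PC9 the median of all genes was 0.20 with library totals and 0.30 by limma on log2 TPM, and the members stood 0.57 below all genes with TMM, with library totals and with log2 TPM alike (-0.57 in each), and at -0.47 by limma on log2 of TPM plus 1. In HCC2935 log2 TPM moved the median of all genes to 0.19, and the members stood at -0.81 beside it, as with TMM. The calls in PC9 were 65 lower and 2 higher with library totals and 52 lower and 3 higher with limma on log2 TPM. In HCC827 the split of 7 higher and 18 lower became 11 and 15 with library totals and 11 and 16 with limma on log2 TPM, and the HCC827 count of 25 was 16 without DMSO replicate 1, 11 without DMSO replicate 2, 16 without DTP replicate 1 and 11 without DTP replicate 2.

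The response of DTPs differed between the lines for 81 of 83 members in the edgeR test of that difference, where 63.9% of all genes passed; RPL3L and RPL39L were the members that did not. The median F was 25.3 over the members and 5.07 over all genes. For mitochondrial ribosomal proteins 52 of 78 passed. In all, 72 members (86.7%) were lower in both PC9 and HCC2935, and 39 of those 72 were higher in H1975. Of the 13484 genes tested in all 4 lines, 2444 (18.1%) were lower in both, and 137 of those were higher in H1975. The 4 members with the lowest adjusted p were RPL10A (1.81e-14), RPS24 (1.38e-13), RPS3 (7.08e-13) and RPS18 (1.04e-12).

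RPL10A, at the stalk near which tRNA leaves the ribosome, shows the pattern. In HCC2935 it stood at 302.9, 303.6 and 275.6 CPM under DMSO and at 104.9, 115.8 and 121.9 CPM in DTPs. In PC9 it stood at 617.2, 603.1 and 606.2 CPM under DMSO and at 475.4, 453.7 and 469.7 CPM in DTPs. In H1975 the values were 456.5, 452.9 and 471.3 CPM against 598.3, 546.5 and 804.9 CPM. The groups did not overlap in these 3 lines, with DTPs low in 2 of them and high in H1975, while in HCC827 519.6, 553.5 and 597.5 CPM overlapped with 646.2, 567.5 and 595.2 CPM. RPL10A fell in HCC2935 (-1.36, SE 0.09, adjusted p = 1.97e-08) and PC9 (-0.38, SE 0.06, adjusted p = 7.98e-05), and rose by 0.50 (SE 0.12, adjusted p = 0.00249) in H1975, with -0.11 (SE 0.10, adjusted p = 0.372) in HCC827. RPS24, a small subunit protein mutated in Diamond-Blackfan anaemia, went from a mean of 979.8 ± 32.1 CPM (SD, n = 3) to 521.5 ± 9.01 CPM in PC9, from 606.4 ± 31.1 to 830.7 ± 97.5 CPM in H1975 and from 243.2 ± 5.52 to 112.1 ± 9.07 CPM in HCC2935. Its log2 fold changes were -0.91, -0.29, 0.45 and -1.12 in the order PC9, HCC827, H1975 and HCC2935, and the call in HCC827 was lost without DMSO replicate 2 (-0.31), DMSO replicate 3 (-0.28), DTP replicate 1 (-0.22) or DTP replicate 2 (-0.31). RPS3, at the entry of the mRNA channel, had -0.46, -0.10, 0.48 and -1.12, and RPS18, in the head of the small subunit, -0.52, 0.14, 0.86 and -0.95.

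The next members have a role outside translation or a special place in the ribosome. RPS6, the substrate of S6 kinase, had DTP fold changes of -0.42 in PC9, -0.29 in HCC827, -0.21 in H1975 and -1.12 in HCC2935. RPL5 and RPL11, which bind MDM2, had -0.83, -0.06, 0.38 and -0.77 and -0.62, 0.01, 0.48 and -0.64. RPSA had -0.70, -0.63, 0.18 and -1.16. The proteins of the stalk that binds elongation factors had -0.35, -0.34, 0.42 and -1.02 (RPLP0), -0.69, 0.07, 0.32 and -0.31 (RPLP1), and -0.69, -0.09, 0.17 and -0.33 (RPLP2). RPS27A, made as a fusion with ubiquitin, had -0.65, -0.32, 0.26 and -0.86. In PC9 and HCC2935 all 8 of these fell, and in H1975 5 of the 8 rose, RPL5, RPL11, RPLP0, RPLP1 and RPS27A. The H1975 call of RPLP1 was lost without DTP replicate 3 (0.23), RPLP2 gained a call there without DTP replicate 2 (0.21), and the HCC2935 call of RPLP1 without DMSO replicate 1 (-0.27), DMSO replicate 2 (-0.26), DTP replicate 2 (-0.28) or DTP replicate 3 (-0.31). Of the most abundant members, RPS2 had -1.16, -0.34, 0.10 and -1.39, RPL41 -0.53, -0.15, -0.50 and -1.04, and RPL10 -0.17, -0.26, 0.20 and -1.03. By limma on log2 TPM the fold change of RPL10 in PC9 was 0.08, and with library totals -0.03. RPL14 had -0.58, 0.08, 0.39 and -0.98, RPL6 -0.76, -0.29, 0.13 and -0.80, and RPL7 -0.87, -0.18, -0.30 and -0.38.

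**Figure D3:**
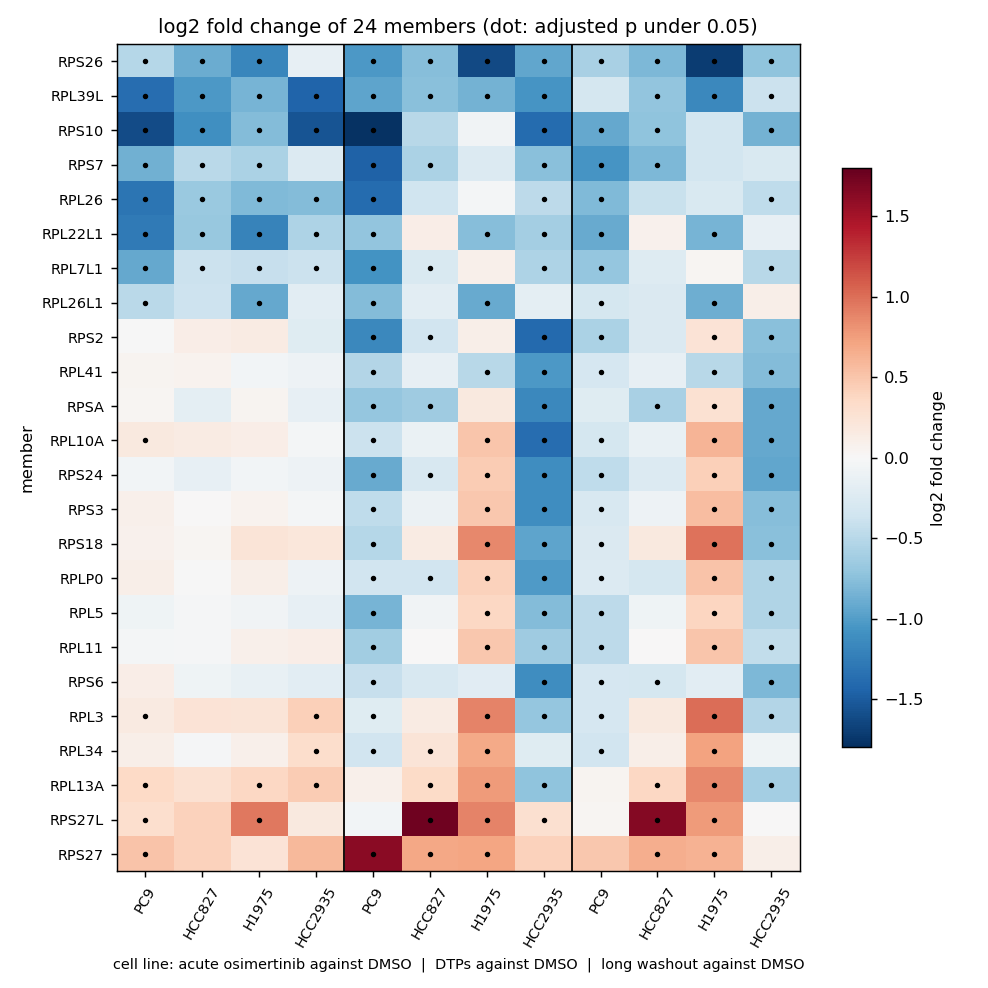
Log2 fold change against DMSO (colour, from -1.8 to 1.8) of 24 named members (vertical axis) for acute osimertinib, DTPs and long washout in each line (horizontal axis). Dots mark adjusted p under 0.05 in edgeR. RPS26 and RPL39L are lower in the DTPs of all 4 lines, and RPS27 and RPS27L are lower in none.

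In the colour map of the named members the acute columns are pale for most members below the 8 at the top, and the DTP and long washout columns of a line resemble each other. The 3 comparisons of a line share its DMSO libraries, so that their values stand side by side and are not compared further. Some members break the pattern of their line by falling in each line, and others by rising.

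RPS26 and RPL39L were the 2 members lower in the DTPs of all 4 lines, as were 8.42% of all genes tested in the 4 lines. RPS26 stood in the DTPs of PC9 at 122.6, 118.3 and 121.6 CPM, of HCC827 at 104.8, 117.2 and 146.9 CPM, of H1975 at 84.83, 95.24 and 72.82 CPM and of HCC2935 at 68.78, 64.01 and 64.67 CPM. All of these lay below the DMSO libraries of their line. The fold changes of RPS26 were -1.03 (SE 0.10, adjusted p = 7.51e-07) in PC9, -0.77 (SE 0.14, adjusted p = 0.000476) in HCC827, -1.63 (SE 0.16, adjusted p = 2.94e-06) in H1975 and -0.93 (SE 0.09, adjusted p = 5.54e-07) in HCC2935. In H1975, where most members rose, RPS26 had the DTP mean of 84.3 ± 11.2 CPM against 261 ± 52.2 CPM under DMSO (SD, n = 3). RPL39L had -0.95, -0.75, -0.84 and -1.07 in the order PC9, HCC827, H1975 and HCC2935, and the difference between the lines did not pass its test. RPS10 had -1.78, -0.50, -0.06 and -1.39 and RPS7 -1.45, -0.57, -0.25 and -0.76 in DTPs, and both were lower in PC9 and HCC2935. The other members lower in H1975 were RPL3L, RPL21, RPL22L1, RPL26L1 and RPL41.

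RPS27 and RPS27L were the 2 members lower in the DTPs of no line. RPS27L, which p53 induces, stood in HCC827 at 10.66, 14.36 and 13.96 CPM under DMSO and at 28.38, 50.39 and 52.02 CPM in DTPs, and in H1975 at 24.10, 31.68 and 26.59 CPM against 58.83, 50.66 and 43.71 CPM. The DTP libraries lay above the DMSO libraries in both lines, with rises of 1.75 (SE 0.21, adjusted p = 1.56e-05) in HCC827 and 0.90 (SE 0.16, adjusted p = 0.000359) in H1975. In PC9 its fold change was -0.04 (SE 0.10), and in HCC2935 0.29 (SE 0.10), a call lost without DMSO replicate 1 (0.28), DMSO replicate 2 (0.29), DTP replicate 2 (0.29) or DTP replicate 3 (0.26). RPS27, its counterpart, rose by 1.62 (SE 0.19) in PC9, 0.69 (SE 0.19) in HCC827 and 0.71 (SE 0.15) in H1975, with 0.42 (SE 0.25) in HCC2935. In PC9 RPS27 went from 4.202, 3.580 and 3.658 CPM to 11.30, 13.23 and 10.59 CPM, a low level for a core member. The fold changes of RPS27 thus carry the uncertainty of shared reads given above. RPL13A had 0.08, 0.34, 0.77 and -0.72 and RPL34 -0.35, 0.24, 0.68 and -0.22 in DTPs, in the order PC9, HCC827, H1975 and HCC2935. Both calls in HCC827 were lost with fewer libraries, that of RPL13A at 0.29, 0.28, 0.34 and 0.23 without DMSO replicate 2, DMSO replicate 3, DTP replicate 2 or DTP replicate 3, and that of RPL34 at 0.23, 0.22, 0.23, 0.21 and 0.19 without DMSO replicate 1, 2 or 3 or DTP replicate 2 or 3.

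**Figure D4:**
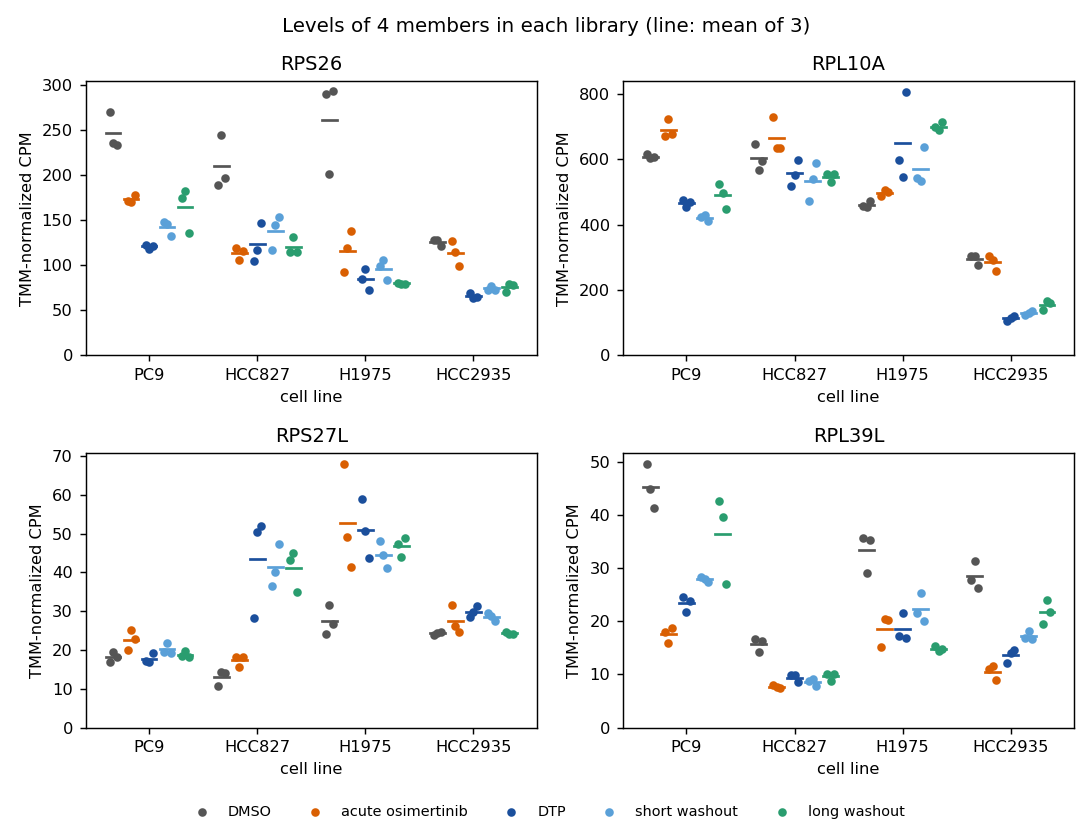
Levels of RPS26, RPL10A, RPS27L and RPL39L in CPM (TMM-scaled within each line, vertical axis) in each library of the 5 arms of each line. Points are libraries and lines the mean of 3. RPS26 in H1975 falls from a DMSO mean of 261 CPM to 84.3 CPM in DTPs, while RPL10A there rises from 460.3 to 649.9 CPM.

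The plot of these 4 levels sets members that went opposite ways in the same libraries beside each other. In the DTPs of H1975 RPS26 was low where RPL10A was high. Some H1975 libraries stood apart for other members: DMSO replicate 2 and acute replicate 1 were low for RPS6 (508.3 CPM beside 726.5 and 775.1 CPM under DMSO, and 465.7 beside 662.5 and 695.9 CPM acutely) and for RPL7 (620.6 beside 890.4 and 895.9 CPM, and 570.4 beside 735.7 and 800.7 CPM). RPL41 showed the same, with 853.9 CPM in DMSO replicate 2 beside 1258 and 1265 CPM. Without DMSO replicate 2 the DTP fold changes in H1975 became calls for RPS6 (-0.38) and RPL7 (-0.46), and RPL41 lost its call without DMSO replicate 1 (-0.42), DMSO replicate 3 (-0.42) or DTP replicate 2 (-0.42). DUSP6 stood in H1975 at 12.20, 7.879 and 10.86 CPM under DMSO and at 1.011, 1.195 and 0.4596 CPM acutely.

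Some paralogs were rarer than their counterparts. Under DMSO RPL39L stood at 34.46 to 94.18 TPM where RPL39 stood at 1576 to 4737 TPM, RPL3L at 0.21 to 0.85 TPM where RPL3 stood at 1058 to 1825 TPM, and RPL22L1 at 26.35 to 214.6 TPM where RPL22 stood at 189.8 to 360 TPM. RPL26 stood at 47.27, 133.1, 125.0 and 45.85 TPM and RPL26L1 at 109.7, 76.92, 138.9 and 54.88 TPM in the order PC9, HCC827, H1975 and HCC2935. RPS27L, at 30.13 to 66.76 TPM, had a higher estimated mean than RPS27 in each line. Reads of RPL26 and RPS27 can be shared with near-identical copies, as said above. Whether these paralogs truly match or exceed their counterparts is thus uncertain and was not tested. RPL39 had DTP fold changes of -0.24, -0.21, 0.67 and -0.64 in the order PC9, HCC827, H1975 and HCC2935. RPL39L thus fell in H1975 where RPL39 rose. RPL22L1 had -0.71, 0.12, -0.77 and -0.61 in DTPs, and RPL22 -0.53, -0.15, 0.30 and -0.70, so that in H1975 the paralog fell and RPL22 rose. RPL26L1 had -0.78, -0.19, -0.91 and -0.18 and RPL26 -1.39, -0.36, -0.04 and -0.47. RPL7L1 had -1.07, -0.27, 0.10 and -0.55. RPL3 had -0.22, 0.15, 0.90 and -0.69, and RPL3L 0.12, 0.43, -0.83 and -0.12, at under 1 TPM. The HCC2935 call of RPL22L1 was lost without DTP replicate 1 (-0.56) or DTP replicate 3 (-0.54), that of RPL26 without DMSO replicate 2 (-0.45), DMSO replicate 3 (-0.40) or DTP replicate 2 (-0.42), and the H1975 call of RPL3L without DMSO replicate 1 (-0.74), DMSO replicate 3 (-0.79), DTP replicate 2 (-0.67) or DTP replicate 3 (-0.85).

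Short washout against DTPs asks what 24 h without drug changed, and few genes of any kind did. By edgeR 3 members were lower in PC9, RPL3, RPL13A and RPS27, and 0 higher, against 2.05% lower and 3.87% higher of all genes. The other lines had 0 members called, where the shares of all genes were 0% higher and 0% lower in HCC827, 0.0585% and 0% in H1975, and 2.32% and 0.816% in HCC2935. At an unadjusted p under 0.05 in edgeR there were 11 of 83 members in PC9, 2 in HCC827, 13 in H1975 and 6 in HCC2935. Of all genes tested, 3739 of 14866, 291 of 14665, 2110 of 15379 and 2569 of 14946 passed in the same order. DESeq2 called 4, 0, 1 and 0 members. Limma on log2 TPM called 2 in PC9 and 0 in the other lines, and the fit on the 6 libraries of the comparison called 10 in PC9, 3 higher and 7 lower. The median log2 fold change of the members was -0.04 in PC9, -0.08 in HCC827, -0.16 in H1975 and 0.06 in HCC2935. The 3 calls of PC9 were not kept with 1 library fewer: without DTP replicate 1 there was 1, and without any other of the 6 libraries 0. In H1975 1 member was called without DTP replicate 2.

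Long washout against DMSO asks what was left when, by the description of the arm, growth had resumed. All 12 proliferation genes were still lower in HCC827 and H1975 (medians of -1.48 and -2.01), and 6 in PC9 and 7 in HCC2935. The members were still displaced in the lines where DTPs were. In PC9, 67 were lower and 0 higher by edgeR (80.7%), against 21.5% lower and 23.4% higher of all genes. In HCC2935, 64 were lower and 0 higher, against 20.8% and 22.5%. In H1975, 59 were higher and 6 lower, against 27.3% and 26%, and in HCC827 5 were higher and 16 lower, against 21.9% and 20%. The medians of the members were -0.31, -0.07, 0.34 and -0.56 in the order PC9, HCC827, H1975 and HCC2935, and those of all genes 0.02, 0.02, 0.03 and 0.01. These washouts lasted 7, 4, 3 and 10 days, so that the values of the lines are given side by side. Of the 53 members lower in both PC9 and HCC2935, 38 were higher in H1975, and of the 1212 such genes among all 13484, 114 were. RPS26 was the only member lower in all 4 lines (1.2% of 83), where 3.89% of the genes tested in all 4 lines were. The log2 fold changes of RPS26 were -0.59 in PC9, -0.81 in HCC827, -1.71 in H1975 and -0.72 in HCC2935. RPS27L had 0.04, 1.66, 0.77 and 0.00, and RPL10A -0.31, -0.14, 0.61 and -0.92.

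The PC9 counts of the long washout depended on the fit. The 6 libraries of the comparison alone gave 35 calls, and limma on log2 TPM 33 lower and 3 higher, with the median of all genes at 0.18 and the members at -0.33 beside it, as with TMM. The PC9 median was -0.21 without long washout replicate 3. In HCC827 the split of 5 higher and 16 lower became 11 and 9 with library totals and 9 and 11 with limma on log2 TPM, and the HCC827 count of 21 was 10 without DMSO replicate 2, 9 without long washout replicate 1 and 9 without long washout replicate 2.

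Genes that build the ribosome but are not part of it were mostly lower within 24 h. Of 34 assembly factors, 32 were lower acutely in PC9, 28 in HCC827, 34 in H1975 and 32 in HCC2935, with median fold changes of -1.48, -0.67, -1.01 and -0.93. FBL, the methyltransferase of ribosomal RNA, and NOP56, its partner in box C/D particles, were lower acutely in all 4 lines, FBL at -0.89, -0.88, -0.78 and -0.53 and NOP56 at -2.38, -0.84, -1.10 and -1.23. In DTPs 32, 21, 25 and 27 assembly factors were lower, with medians of -1.34, -0.47, -0.46 and -0.69. In H1975, where 47 of 83 members rose in DTPs, FBL had -0.32 and NOP56 -0.03. After the long washout 33, 25, 25 and 24 were lower. The 12 genes of RNA polymerase I and rRNA synthesis had 8, 4, 8 and 6 lower acutely and 11, 2, 2 and 6 lower in DTPs, and POLR1A and POLR1B, its catalytic subunits, had DTP fold changes of -0.99 and -1.88 in PC9 and -0.03 and -0.28 in H1975. Of 13 chaperones and importers that escort single ribosomal proteins, 13, 10, 12 and 10 were lower acutely and 12, 7, 7 and 9 in DTPs. GRWD1, the chaperone of RPL3, had -1.24, -0.26, -0.70 and -1.01 in DTPs, and RRS1, which brings RPL5 and RPL11 to the ribosome, -1.65, -0.59, -1.92 and -0.94.

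The mitochondrial ribosomal proteins also fell from 24 h on. Of 78, 60 were lower acutely in PC9, 56 in HCC827, 65 in H1975 and 41 in HCC2935, with medians of -0.57, -0.46, -0.52 and -0.32. In DTPs 73, 52, 53 and 52 were lower, with medians of -0.83, -0.44, -0.42 and -0.48. In H1975 DTPs the mitochondrial list thus had a negative median beside the positive median of the cytosolic members. Short abundant genes that are not members, chosen for an effective length under 1000 bases and a mean of at least 100 CPM in the line, had 23 higher and 78 lower of 120 in PC9 DTPs, 25 and 53 of 109 in HCC827, 24 and 32 of 107 in H1975, and 10 and 56 of 93 in HCC2935, with medians of -0.44, -0.27, 0.01 and -0.42.

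Of the 23 other 5′TOP mRNAs, 16 were lower and 1 higher in PC9 DTPs, 6 and 1 in HCC827, 5 and 10 in H1975, and 16 and 3 in HCC2935, with medians of -0.36, -0.06, 0.19 and -0.44. Those lower were 69.6%, 26.1%, 21.7% and 69.6%, beside 33.5%, 20.4%, 25.7% and 25.8% of all genes. Those higher were 4.35%, 4.35%, 43.5% and 13.0%, beside 35.7%, 23%, 26% and 27%. EEF1A1 had DTP fold changes of -0.01, 0.18, 0.56 and -0.70 and EEF2 of 0.07, 0.24, 0.89 and -0.34, and by limma on log2 TPM EEF1A1 had 0.24 in PC9. The poly(A)-binding protein PABPC1 had -0.32, -0.25, 0.19 and 0.27, and TPT1, a growth-related 5′TOP mRNA, 0.09, -0.06, 0.16 and -0.29. NPM1, which carries ribosomal parts through the nucleolus, was lower in all 4 lines, at -1.19, -0.68, -0.57 and -0.42. Of the 6 related genes that the symbol rule leaves out, 4 were lower in PC9 DTPs and 3 in HCC2935, and 1 was higher in HCC827 and 1 in H1975. FAU had -0.38, -0.10, 0.12 and -1.03, and RACK1, a signalling scaffold on the small subunit, -0.47, 0.16, 0.37 and -0.74. The H1975 call of RACK1 was lost without DMSO replicate 1 (0.31) or DTP replicate 3 (0.21), that of PABPC1 in HCC827 without DMSO replicate 1 (-0.22), DMSO replicate 2 (-0.26), DTP replicate 1 (-0.21) or DTP replicate 2 (-0.24), and in HCC2935 without DMSO replicate 1 (0.26), DTP replicate 1 (0.25) or DTP replicate 3 (0.19).

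**Figure D5:**
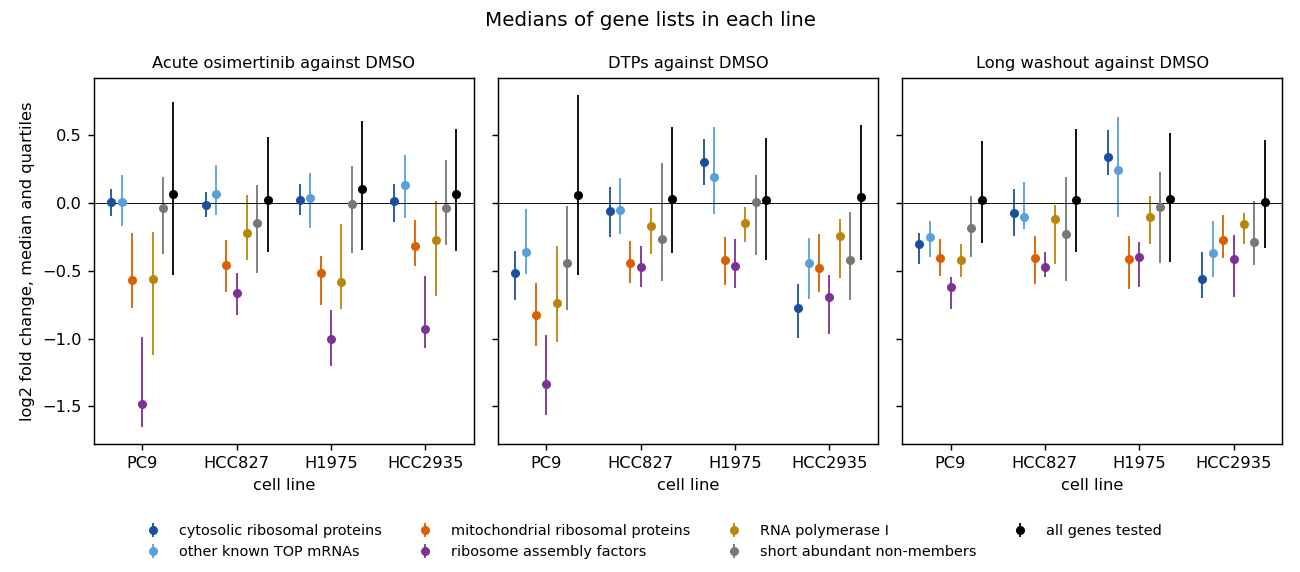
Median log2 fold change against DMSO (points, vertical axis) with quartiles (bars) of 7 gene lists for acute osimertinib, DTPs and long washout in each line. The acute medians of the cytosolic members lie between -0.02 and 0.02, those of the assembly factors between -1.48 and -0.67, and the DTP medians of the members between -0.77 and 0.30.

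The plot of list medians separates lists that fell within 24 h, the assembly factors and mitochondrial ribosomal proteins, from the cytosolic members and the other 5′TOP mRNAs, whose acute medians were 0.00, 0.07, 0.03 and 0.14 in the order PC9, HCC827, H1975 and HCC2935. In HCC827 the DTP medians of both lists were -0.06. Among 17 genes of the MTOR and LARP1 branch, 5 were higher and 10 lower acutely in PC9, 3 and 10 in HCC827, 4 and 9 in H1975, and 4 and 5 in HCC2935, and in DTPs 3 and 11, 4 and 7, 2 and 7, and 4 and 4. In HCC2935 the 4 of 17 higher and 5 of 17 lower acutely (23.5% and 29.4%) stand beside 24.9% and 22.2% of all genes. In HCC2935 DTPs the 4 higher and 4 lower (23.5% each) stand beside 27% and 25.8%. The shares of all genes for the other lines are given above. LARP1 fell acutely, at -1.17 in PC9, -0.43 in HCC827, -0.38 in H1975 and -0.49 in HCC2935, and in DTPs had -0.69, -0.17, -0.11 and 0.10. EIF4EBP1, an inhibitor of cap-dependent translation under MTOR, fell in the DTPs of PC9 (-1.06), HCC827 (-0.95) and H1975 (-0.71), with 0.02 in HCC2935. Of the 7 genes of the MYC network, 4 were higher acutely in each line and 1, 0, 1 and 1 lower. In DTPs 5, 4, 5 and 4 were higher and 1, 0, 0 and 1 lower. The 4 higher acutely (57.1%) stand beside 34.5%, 18.7%, 27.8% and 24.9% of all genes. The list joins MYC with other genes, among them MXD4, so its counts do not measure MYC activity. Its highest acute fold change was that of MXD4 in PC9 (2.8), H1975 (1.7) and HCC2935 (2.7) and of MYCL in HCC827 (2.0). MYC itself fell acutely in PC9 (-1.16) and HCC2935 (-1.54), with 0.37 in HCC827 and -0.59 in H1975, and had DTP fold changes of -0.60 (SE 0.24, adjusted p = 0.0401) in PC9, 0.29 (SE 0.15, adjusted p = 0.141) in HCC827, 1.12 (SE 0.34, adjusted p = 0.012) in H1975 and -0.53 (SE 0.16, adjusted p = 0.00902) in HCC2935. The MYC calls in DTPs did not all hold with 1 library fewer: in PC9 without DMSO replicate 1 (-0.54), DMSO replicate 3 (-0.58), DTP replicate 1 (-0.45) or DTP replicate 2 (-0.51), in H1975 without DMSO replicate 1 (0.97) and in HCC2935 without DMSO replicate 1 (-0.40) they were lost.

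Proliferation genes fell with the drug in all lines, 12 of 12 acutely and 12 of 12 in DTPs, with the long washout counts given above. MKI67, a marker of dividing cells, had DTP fold changes of -1.45, -1.46, -1.71 and -2.32, so that in H1975 MKI67 fell while 47 of 83 members rose. Of 10 genes of the MAPK output, 8 were lower in PC9 DTPs, 4 in HCC827, 9 in H1975 and 9 in HCC2935. DUSP6 had DTP fold changes of -4.80, -0.34, -2.90 and -3.70 and SPRY4 of -4.07, -0.97, -4.74 and -2.96. Of 10 p53 targets, 6, 5, 5 and 3 were higher and 0, 0, 1 and 4 lower in DTPs. CDKN1A, the cell cycle inhibitor, had 0.73, 0.97, -0.18 and 0.57, and MDM2 -0.13, -0.17, 0.38 and -0.66. Epithelial markers in DTPs were higher and lower in 4 and 4 of 10 in PC9, 0 and 7 in HCC827, 0 and 5 in H1975, and 1 and 6 in HCC2935, and markers of other cell types in 4 and 2 of 6 tested, 3 and 0 of 7, 3 and 1 of 9, and 3 and 1 of 7. The summed level of the latter ranged over the libraries from 27.1 to 59.6 TPM in PC9, 85.8 to 219 TPM in HCC827, 121 to 322 TPM in H1975 and 53.8 to 164 TPM in HCC2935, and its part in the results was not tested.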

How the data were processed

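Gene tables with 1 column per library came from the authors. The authors deposited estimated counts per gene, which were rounded and tested here. The authors also deposited log2 TPM with 0.01 added, from which TPM levels were computed. Shares were taken of the library's summed TPM over the listed genes. The submitters' processing notes name HISAT2 2.1.0, Salmon 0.8.2 and hg38; the annotation is not given in the sources used here. edgeR 4.0.16 under R 4.3.3 fitted the 15 libraries of each line alone with 1 mean per arm (TMM, filterByExpr, glmQLFit, glmQLFTest), with Benjamini-Hochberg adjustment over all genes tested in that line and a threshold of 0.05. Differences between the lines were tested on 60 libraries with 3 contrasts at once. The standard error is the absolute log2 fold change over the square root of F. Counts of genes called in several lines at once were made over the 13484 genes tested in all 4 lines. Levels in CPM use the TMM factors of the line.

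Named members are the paralogs, members with known roles, the 4 lowest and highest mean fold changes acutely and in DTPs, the 4 lowest adjusted p of each test between lines, the 3 most abundant, members called in 3 or more lines against the direction of the median, and listed genes of other pathways; some results that this rule names are not reported here. RPL21 and the members of short lists were named after their values were seen. The members and lists were chosen with earlier results of these data known. Alternatives were other size factors, library totals, TMM without the members, DESeq2 1.42.0, limma 3.58.1 on log2 TPM and on log2 of TPM plus 1, no filter, a filter of 10 counts, the 6 libraries of a comparison, a replicate block, a threshold of 0.01, shares of estimated counts, and each replicate left out. Effective length came from counts over TPM, scaled by 1628 genes with 1 transcript. Python 3.11.15, numpy 2.4.6, pandas 2.3.3 and matplotlib 3.10.9 made the summaries and figures. Of 9 host genes of small nucleolar RNAs, 0 were in the tables.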

Additional observations from a re-analysis of the deposited data

Results flagged for a closer look

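The following results were picked out because the effect of the drug was tested for a difference among PC9, HCC827, H1975 and HCC2935, on 60 libraries, and differed. For acute osimertinib against DMSO the response differed between the lines for 7 of 83 members at an adjusted p under 0.05 in edgeR. Of all genes tested, 41.4% passed. Among the 7 members, the adjusted p of the difference was 0.000119 for RPS26, 0.0074 for RPL22L1 and 0.0133 for RPL39L. The count of members was 2 without replicate 1 of each group and 4 without replicate 3.

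For DTPs against DMSO the response differed between the lines for 81 of 83 members, where 63.9% of all genes tested passed. Among the members, the lowest adjusted p of that difference were those of RPL10A (1.81e-14), RPS24 (1.38e-13), RPS3 (7.08e-13) and RPS18 (1.04e-12).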

How the results depend on the processing

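Depth ran from 17.7 to 49.1 M counts, and 83 of 84 members were tested in each line. Of 12520 recomputed values of named genes, 11950 kept their direction and their side of the threshold, 405 lost a call, 161 gained a call and 4 turned direction. Those 4 were, by limma on log2 TPM and on log2 of TPM plus 1, RPL10 in PC9 DTPs (0.08203 and 0.082) and EEF1A1 in PC9 DTPs (0.2417 and 0.2416). For the values that follow, the cause was not tested, except that a threshold of 0.01 gives fewer calls by construction.

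With library totals in place of TMM, the acute count was 16 in HCC827 (10 with TMM), and the member medians in PC9 were -0.377 in DTPs (-0.5187 with TMM) and -0.1909 after the long washout (-0.3063 with TMM). Limma on log2 TPM and on log2 of TPM plus 1 gave 16 and 16 for the acute count in HCC827, -0.2683 and -0.2681 for the DTP median in PC9, -0.6267 and -0.6258 for that in HCC2935 (-0.7748 with TMM), and, for the long washout in PC9, 36 and 35 calls (67 by edgeR) and medians of -0.1472 and -0.1472. Shares of estimated counts gave ratios to DMSO of 0.7923 in PC9 and 0.5595 in HCC2935 for DTPs and of 0.8826 in PC9 and 0.6686 in HCC2935 for the long washout. At an adjusted p under 0.01 the acute counts were 15 in PC9, 5 in HCC827, 10 in H1975 and 7 in HCC2935, the acute difference between lines 3, the HCC827 counts 7 in DTPs and 6 after the long washout, and the short washout count in PC9 0. With the 6 libraries of a comparison alone the counts were 12 for HCC827 DTPs, 10 for the short washout in PC9 and 35 for the long washout in PC9. DESeq2 called 1 member for the short washout in H1975.

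Leaving out 1 library at a time, acute counts ran from 5 to 11 in HCC827 and from 8 to 17 in HCC2935, the DTP count in HCC827 from 11 to 20, and the long washout count in HCC827 from 9 to 18. The DTP median in H1975 ran from 0.1874 to 0.3474 and its share ratio from 1.17 to 1.292. The short washout counts ran from 0 to 1 in PC9 and from 0 to 1 in H1975, with the H1975 share ratio from 0.8727 to 0.9639. The long washout median in PC9 ran from -0.364 to -0.2126 and its share ratio from 0.9091 to 0.9709. With 1 replicate number left out of every group at once, the acute difference between lines ran from 2 to 5 members.

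A replicate block (pairing libraries by number) gave acute counts of 26, 9, 16 and 14, DTP counts of 78, 21, 55 and 76, and long washout counts of 66, 18, 67 and 64 in the order PC9, HCC827, H1975 and HCC2935. The mean correlation of residuals between libraries of the same number was -0.006 in PC9, -0.006 in HCC827, 0.020 in H1975 and -0.001 in HCC2935. On average the numbers thus did not pair libraries. Single pairs ran from -0.196 to 0.229 in PC9, -0.346 to 0.677 in HCC827, -0.603 to 0.562 in H1975 and -0.25 to 0.332 in HCC2935. Pairing between particular arms was not tested.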
